A study of Mus musculus with 20 samples.

Results

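The semaphorins, plexins and neuropilins, a ligand and receptor family first known from axon guidance, were examined in bulk RNA-seq of mouse microglia, the resident macrophages of the brain. The members were all protein-coding genes named Sema3 to Sema7 with a letter, Plxna to Plxnd with a number, Nrp1 or Nrp2, which gave 31 genes (20 semaphorins, 9 plexins and 2 neuropilins) of 55487 gene identifiers in the count table. 3 antisense genes of Plxna4 matched the name pattern but are not protein-coding and were left out. The study profiled microglia from cortex and from brainstem of 10 mice, 1 library per region and mouse, at 2 months of age and at a stage the labels call end-stage. All mice came from crosses in which Cre recombinase fused to an estrogen receptor was driven by Cx3cr1 and could switch on the BRAF V600E form of the Braf kinase from a stop-flanked Braf allele (Braf LSL-V600E), after 37.5 mg per kg of 4-hydroxytamoxifen given to the pregnant females at embryonic day 9.5. V600E is a change that keeps the kinase active without an upstream signal.

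Mutant mice were Braf VE and heterozygous at Cx3cr1 (Braf VE; CX3 HET), with 2-month mice M2617, M2621 and M2624 and end-stage mice M1376 and M1524. Control mice at 2 months (M2618, M2629 and M2633) were Braf WT; CX3 HET, so they carried Cre without the Braf allele. The 2 end-stage controls were of different kinds: M1521 was Braf WT; CX3 HET, and M1375 was Braf VE; CX3 WT, which had the Braf allele and no Cre. Cx3cr1 is also active in other macrophages, and neither the purification of the microglia nor the age at end-stage is given in the sources used here. The labels of the 6 younger mice conflict: titles and descriptions give different animal numbers for 5 of them, and count columns are named as the descriptions are. Genotype was therefore taken from whichever title has the same number as the column, and taking it from each sample's own record instead changed it for 4 mice (M2617, M2618, M2621 and M2633). Region is given as a label, because the summed CPM of 7 brainstem tissue markers, 6 of them Hox genes, ran from 0.381 to 3.49 under the cortex label and from 0.108 to 1.13 under the brainstem label, against the labels' direction. CPM are counts scaled to a common library size after TMM normalization.

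Semaphorins are secreted or membrane-bound ligands, grouped into classes by structure, and plexins are their main receptors, which act on small GTPases and so on the cell's shape and movement. Neuropilins are co-receptors that bind secreted class 3 semaphorins together with A-type plexins, and they also bind VEGF. In the immune system class 4 semaphorins and their receptors are known from contacts between myeloid cells and lymphocytes, and Plxna4 and Plxnb2 are known to be made by microglia and macrophages.

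The promoter sequences of the members that differed between genotypes are shown so that these regulatory sequences stand beside the values. RefSeq starts of the GRCm38.p6 build gave a promoter window for 26 of the 31 members, with 37 starts in all, and of the 5 members called between genotypes Sema4b, Sema6d, Sema4a and Nrp2 had one. Plxna4 had no entry in that table. The 250 bases before each start were searched on both strands for CCGGAAGT (an ETS motif), TGANTCA (AP-1), CACGTG (E-box) and GGGCGG (GC box), and the capitals mark the matches. ETS and AP-1 factors are known targets of ERK signalling, the cascade BRAF belongs to. For each gene the start furthest upstream is printed, 5′ to 3′ on the gene's own strand, and bases that overlap an annotated exon were cut off, which left 221 bases for Sema4b and 218 for Nrp2.
Sema4b, chr7:80186620-80186840, plus strand: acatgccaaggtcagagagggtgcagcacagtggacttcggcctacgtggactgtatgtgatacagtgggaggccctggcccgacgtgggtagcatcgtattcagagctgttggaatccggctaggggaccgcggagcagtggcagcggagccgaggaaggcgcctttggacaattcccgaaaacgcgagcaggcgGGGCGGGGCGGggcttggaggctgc
Sema6d, chr2:124089719-124089968, plus strand: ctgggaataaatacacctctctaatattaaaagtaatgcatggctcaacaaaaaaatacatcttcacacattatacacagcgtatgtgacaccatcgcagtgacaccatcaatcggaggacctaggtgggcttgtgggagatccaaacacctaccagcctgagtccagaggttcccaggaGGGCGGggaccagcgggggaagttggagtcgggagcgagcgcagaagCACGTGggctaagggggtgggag
Sema4a, chr3:88461183-88461432, minus strand: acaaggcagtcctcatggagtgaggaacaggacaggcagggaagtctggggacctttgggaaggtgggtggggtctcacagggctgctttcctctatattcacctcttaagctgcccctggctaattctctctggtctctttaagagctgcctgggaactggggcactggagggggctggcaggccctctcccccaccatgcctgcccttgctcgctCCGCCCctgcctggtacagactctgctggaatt
Nrp2, chr1:62703067-62703284, plus strand: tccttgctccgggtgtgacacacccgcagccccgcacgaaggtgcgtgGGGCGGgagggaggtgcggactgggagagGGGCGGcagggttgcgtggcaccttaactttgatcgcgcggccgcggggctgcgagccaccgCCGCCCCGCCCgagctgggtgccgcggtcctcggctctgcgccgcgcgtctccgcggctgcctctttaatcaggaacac
The printed Sema4b stretch held 2 overlapping GC boxes, that of Sema6d held 1 GC box and 1 E-box, that of Sema4a held 1 GC box and that of Nrp2 held 4 GC boxes. None of these stretches held the ETS or AP-1 letters. Over the 37 member windows 0 held the ETS motif, 3 the AP-1 motif, 2 the E-box and 27 the GC box. Over all 32851 promoter windows of the same length these shares were 2.88%, 6.75%, 6.02% and 32.7%. A match is a description of these letters only.

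By number, the members tested were mostly plexins, class 4 semaphorins and neuropilins, with 3 of class 6 and 1 of class 3. Being tested is not a measure of level. Of 31 members, 20 had enough counts in enough libraries to be tested by edgeR (9 of 20 semaphorins, 9 of 9 plexins and 2 of 2 neuropilins), and 13 had counts in all 20 libraries. Among the ligands, 5 of 6 members of class 4, 3 of 4 of class 6 and 1 of 7 of class 3 were tested. None of the 2 members of class 5 and of the 1 member of class 7 was. The 11 members not tested were Sema3a, Sema3b, Sema3c, Sema3d, Sema3e, Sema3g, Sema4f, Sema5a, Sema5b, Sema6a and Sema7a. Each had at most 26 counts over the 20 libraries together and at most 1.04 CPM in any one. Sema4f was at 0 in every library. Since 3 counts could be missed by chance where 0 are seen, a value of 0 means less than 0.142 CPM at the largest library total and less than 0.319 CPM at the smallest, with counting error alone considered.

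Levels between genes were compared per kilobase of exon. Plxnb2, a receptor of class 4 semaphorins, had the highest median over the 20 libraries at 50.6 CPM per kb (mean 54.4 ± 12.8, SD, n = 20). Sema4d, a class 4 ligand also known as CD100, had a median of 47.8 CPM per kb (50.4 ± 15.3). These SDs are over libraries of 10 mice in 8 groups and so include differences between groups. The spreads of these neighbours in the order overlapped, and the genes were not tested against each other. Sema4c, another class 4 ligand, followed at 19.03 (20.2 ± 6.50), and Nrp1 at 7.97 (9.18 ± 4.00). Plxna4 stood at 3.54 CPM per kb and Sema4b at 3.25, again within their spread (SD 1.61 and 1.79). Plxnb3 at 2.12, Sema4a at 1.81, Nrp2 at 1.54, Sema4g at 1.30 and Sema6b at 1.22 CPM per kb formed a run whose neighbours overlapped. Below 1 CPM per kb were the medians of Sema6c, Plxna1, Plxna3, Sema6d, Plxnd1, Plxnc1, Sema3f, Plxnb1 and Plxna2. Plxna2 had 40 counts and Plxnb1 98 counts over all libraries, so their differences carried little precision. Plxna2 reached 10 counts in 2 libraries only, both end-stage mutant cortex-labelled. Of the exon bases of Plxna1 10.7% lie in another annotated gene and of Sema4c 7.27%, and whether the counting used strand is not given in the sources used here, so reads of such overlaps cannot be assigned to one gene.

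**Figure D1:**
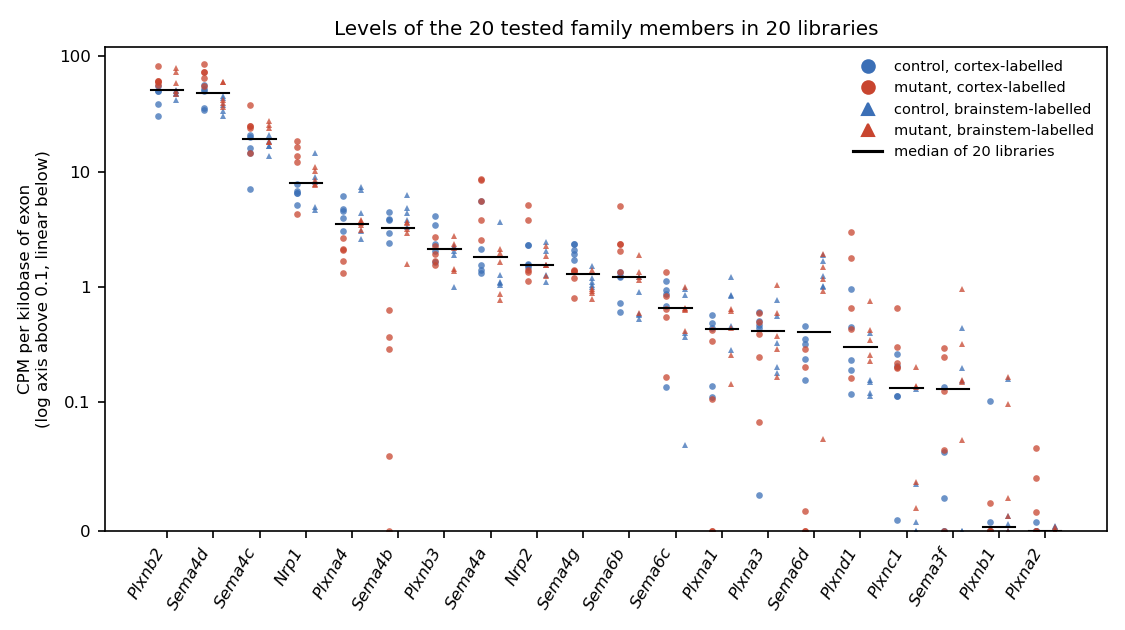
CPM per kilobase of exon of the 20 tested members, with a log axis above 0.1 and a linear one below. Circles are cortex-labelled and triangles brainstem-labelled libraries, blue control and red mutant, and lines are medians of 20 libraries. Plxnb2 and Sema4d stand highest at medians of 50.6 and 47.8, and the mutant cortex-labelled points of Sema4b lie far below its other points.

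Library totals ran from 9395203 to 21171114 counts. The sum of 8 microglia markers ran from 32180 to 61920 CPM over the libraries and was lowest in the end-stage mutant cortex-labelled ones. In bulk samples fewer cells of a type and less RNA per cell cannot be told apart. The labels name each mouse as a separate animal, with 2 or 3 per group. The main fit has no mouse term, so its p-values rest on the spread within groups, shared over all 8 groups. Both libraries of a mouse enter it as separate. Between region labels these p-values therefore do not measure the spread of paired differences, which the fits with the mouse as a replicate block take into account.

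Between region labels, averaged over genotypes and stages, 9 of the 20 tested members differed, against 14% of 16595 tested genes. A gene is called different here where its p, adjusted over all 16595 genes, was under 0.05. The 6 higher in cortex-labelled libraries, where 7.53% of genes were higher, were the ligands Sema4a, Sema4d, Sema4g and Sema6b and the receptors Plxnc1 and Plxnd1. The 3 lower ones, against 6.51% of genes, were the ligands Sema4b and Sema6d and the receptor Plxna4. The median log2 difference was 0.19 over the members and 0.01 over all genes. Both libraries of a mouse come from 1 animal. With the mouse as a replicate block the same number of members, 9, was called, against 17.6% of genes.

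Sema6d, a transmembrane ligand of A-type plexins, was lower under the cortex label in 10 of 10 mice. Its CPM had a lowest value of 0, a median of 2.33 and a highest value of 4.87 in cortex-labelled libraries, and of 0.758, 12.8 and 20.5 in brainstem-labelled ones. The ranges overlapped only through the brainstem-labelled library of end-stage mutant M1524. The log2 difference was -3.32 ± 0.53 (SE, adjusted p = 0.000562, edgeR). Sema4b, a transmembrane class 4 ligand, was lower by -2.52 ± 0.25 (adjusted p = 6.79e-06), and Plxna4, a receptor for class 6 semaphorins and with neuropilins for class 3, by -0.46 ± 0.14 (adjusted p = 0.0347). Both were lower under the cortex label in 5 of 5 mutant mice and in 3 of 5 control mice.

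Sema4a, a class 4 ligand made by antigen-presenting cells, was higher under the cortex label in 10 of 10 mice. It ran from 7.10 to 46.5 CPM with a median of 17.2 in cortex-labelled and from 4.15 to 19.8 with a median of 6.39 in brainstem-labelled libraries, and these ranges overlapped. The log2 difference was 1.25 ± 0.27 (adjusted p = 0.00454). Sema4g, a class 4 ligand, was higher in 9 of 10 mice by 0.61 ± 0.14 (adjusted p = 0.00795), with medians of 13.5 and 8.82 CPM. Sema4d was higher in 8 of 10 mice by 0.43 ± 0.13 (adjusted p = 0.0318), with medians of 429.7 and 312.1 CPM. Sema6b, another transmembrane ligand of A-type plexins, was higher in 9 of 10 mice by 0.78 ± 0.24 (adjusted p = 0.0353). Among receptors Plxnc1, the receptor of Sema7a, was higher in 9 of 10 mice by 2.15 ± 0.53 (adjusted p = 0.0109), at medians of 1.70 and 0.313 CPM. Plxnd1, a receptor best known from blood vessels, was higher in 7 of 10 mice by 1.26 ± 0.40 (adjusted p = 0.0454). Of 16 alternatives, which are other tools, filters, label readings or fits without 1 mouse, the calls of Sema4b and Sema6d held in 16, those of Sema4a and Sema4g in 15, that of Plxnc1 in 12, those of Sema4d, Sema6b and Plxna4 in 8 and that of Plxnd1 in 7. Fewer members were called without end-stage control M1375 or without end-stage control M1521, and the share of all genes called in those fits is not given here. The Plxnc1 call was lost without M1375 (adjusted p = 0.234) and M1524 (0.0612). Those of Plxna4, Plxnd1, Sema4d and Sema6b were each lost without 6 or 7 of the 10 mice taken 1 at a time, M1375 and M1521 among them, with adjusted p up to 0.138, 0.192, 0.114 and 0.217.

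**Figure D2:**
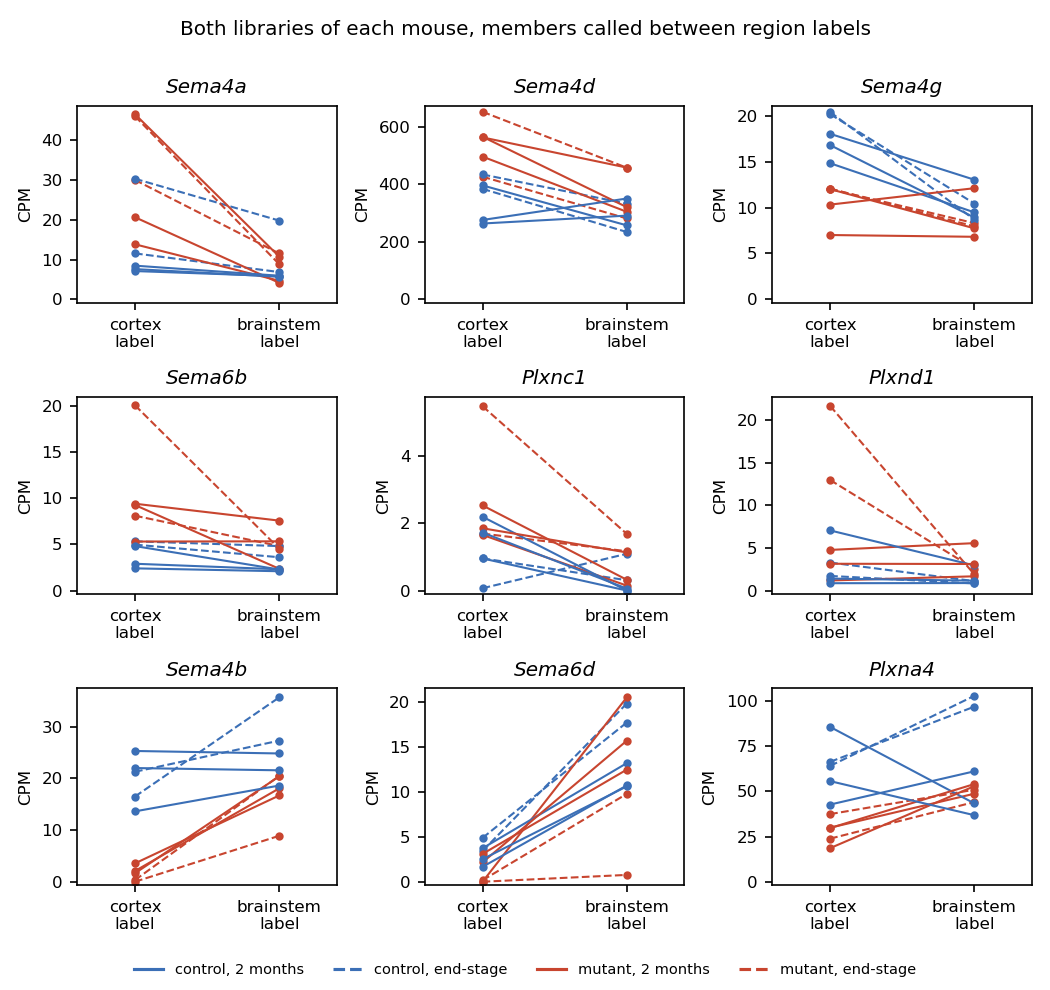
CPM of the 9 members called between region labels. Each line joins the cortex-labelled and brainstem-labelled library of 1 mouse, blue control and red mutant, solid 2 months and dashed end-stage. All 10 lines fall to the right for Sema4a and rise for Sema6d, while the Sema4b lines rise steeply for the 5 mutant mice and are mixed for the 5 control mice.

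Region was also tested within genotypes, a comparison chosen after the data were seen. In control mice 0 members were called, where 0.765% of genes were. With the mouse as a replicate block 2 were, where 3.13% of genes were, Sema4g at a log2 difference of 0.88 (adjusted p = 0.0213) and Sema6d at -2.19 (adjusted p = 0.0410). In mutant mice 5 members were called, where 10.4% of genes were: Sema4b at -4.62 (adjusted p = 1.8e-06), Sema6d at -4.49 (adjusted p = 0.00231), Sema4a at 1.98 (adjusted p = 0.00324), Plxna4 at -0.81 (adjusted p = 0.0147) and Sema6b at 1.12 (adjusted p = 0.0401). With the mouse as a replicate block 7 were called, where 14.3% of genes were, with Sema4d at 0.58 (adjusted p = 0.00913) and Plxnd1 at 1.35 (adjusted p = 0.0101) in addition. Read by the sample record 2 were called, Sema4b (adjusted p = 0.0184) and Sema6d (adjusted p = 0.0195), where 2.81% of genes were. Whether these differ between genotypes is the interaction given with the genotype results.

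Between stages, end-stage against 2 months, no member differed in control mice of either region label. There 0.0% of all genes differed under the cortex label and 0.0% under the brainstem label by edgeR, which gave 1 and 4 members an unadjusted p under 0.05 (8.63% and 8.24% of genes). DESeq2 called 0 members in both (0.175% and 0.247% of genes). Among mutant mice 2 members differed in cortex-labelled libraries, against 1.84% of genes, and 0 in brainstem-labelled ones, against 0.0422%. In the latter 0 members had an unadjusted p under 0.05, where 10.3% of genes did, and DESeq2 called 0, where it called 0.988% of genes. The co-receptor gene Nrp2 was higher at end-stage, where 0.735% of genes were. Its CPM was 60.6 and 45.4 in the end-stage mutants M1376 and M1524 and 13.3, 16.8 and 16.1 in the 2-month mutants M2617, M2621 and M2624, without overlap. The log2 difference was 1.78 ± 0.29 (adjusted p = 0.00322). The ligand gene Sema4b was lower, where 1.1% of genes were, by -3.74 ± 0.67 (adjusted p = 0.00686). Nrp2 was not called without M1376 (adjusted p = 0.0709), and both calls were lost without the 4 mice of conflicting labels. Sema4b was also not called with only the groups compared in the fit (adjusted p = 0.180). The end-stage controls are also of another make-up than the 2-month ones, as given above.

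Between genotypes, members were called under the cortex label at both stages and under the brainstem label at neither. At end-stage 3 of 20 members differed in cortex-labelled libraries, against 4.01% of genes. The ligands Sema4b and Sema6d were lower, where 2.18% of genes were lower, and the co-receptor Nrp2 was higher, where 1.83% were higher. 10 members had an unadjusted p under 0.05, as did 17.8% of genes. Plxna2 is among these 10 and in the member median below. It was tested only through the end-stage mutant cortex-labelled group, where it is high, so its part in both is not a separate result. Leaving out M1375, M1376, M1521, M1524, M2621 or M2624 kept the Sema4b call and lost those of Sema6d and Nrp2. The median log2 difference was 0.39 over the members and 0.02 over all genes. In brainstem-labelled libraries of the same mice 0 members were called, against 0.151% of genes. Here edgeR gave 3 members an unadjusted p under 0.05, against 10.4% of genes, and DESeq2 called 1, Plxna4, against 1.9% of genes.

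Sema4b fell to near 0 in end-stage mutant cortex-labelled libraries. It stood at 21.3 CPM in control M1375 and 16.5 in control M1521, and at 0.327 and 0 CPM in mutants M1376 and M1524, where the groups were far apart. The 2 mutant libraries held 6 counts and the 2 control libraries 442, which is 103-fold lower at equal library size (95% interval for counting error 47.1 to 283). The fitted log2 difference was -6.69 ± 0.68 (adjusted p = 4.1e-05). This call held in 16 of 16 alternatives. In the brainstem-labelled libraries of the same mice Sema4b was at 27.3 and 35.6 CPM in controls and at 20.5 and 8.88 in mutants, again without overlap but within one order of magnitude (log2 difference -1.10 ± 0.46, adjusted p = 0.405).

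Sema6d was low in all cortex-labelled libraries and fell further in the end-stage mutants. It stood at 4.87 and 3.42 CPM in the controls M1375 and M1521 and at 0.163 and 0 in the mutants M1376 and M1524. These are 3 counts against 96, which is 44.9-fold lower (95% interval for counting error 14.9 to 221), with a fitted log2 difference of -5.44 ± 1.44 (adjusted p = 0.0417). The call held in 4 of 16 alternatives and in 1 of the 10 fits that leave out 1 mouse, with adjusted p up to 0.195 without M1375. At 2 months it was at 3.71, 2.50 and 1.65 CPM in the cortex-labelled controls M2618, M2629 and M2633 and at 0, 2.15 and 3.09 in the mutants M2617, M2621 and M2624, so the groups overlapped and M2617 alone had none. In brainstem-labelled libraries Sema6d was at 17.7 and 19.8 CPM in controls and at 9.76 and 0.758 in mutants (log2 difference -1.83 ± 0.99, adjusted p = 0.548).

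The co-receptor gene Nrp2 was at 27.5 and 18.8 CPM in the end-stage cortex-labelled controls and at 60.6 and 45.4 in the mutants, without overlap. The log2 difference was 1.20 ± 0.32 (adjusted p = 0.0464), and the call held in 6 of 16 alternatives. Of the 10 fits without 1 mouse 3 kept it. It was lost without M1375, M1376, M1521, M1524, M2617, M2621 or M2624, with adjusted p up to 0.273. The related co-receptor Nrp1 was at 63.2 and 63.7 CPM in controls and 160.5 and 179.6 in mutants, also without overlap, but did not pass (log2 difference 1.42 ± 0.42, adjusted p = 0.0711). Plxna4 had no overlap either, at 64.1 and 66.4 CPM in controls and 37.5 and 23.9 in mutants (-1.09 ± 0.31, adjusted p = 0.0608). Plxnd1 was at 3.28 and 1.71 CPM in controls and 12.96 and 21.6 in mutants (2.80 ± 0.91, adjusted p = 0.102). Sema4a, which differed at 2 months, overlapped at end-stage, at 11.5 and 30.3 CPM in controls and 30.0 and 46.0 in mutants (0.85 ± 0.57, adjusted p = 0.467). DESeq2 called Plxna4, Plxnd1 and Nrp1 here in addition to the 3 genes above, against 6.78% of all genes. For groups this small the share of all genes without overlap is not given, here or in the other comparisons. Lack of overlap therefore only describes the values.

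At 2 months 3 of 20 members differed in cortex-labelled libraries, against 5.45% of genes. Sema4a was higher, where 3.64% of genes were higher, and Sema4b and Plxna4 were lower, where 1.81% were lower. 8 members had an unadjusted p under 0.05, against 19.6% of genes, and the median log2 difference was 0.12 over the members and -0.01 over all genes. In brainstem-labelled libraries 0 members were called, against 0.0362% of genes. By edgeR 2 of them had an unadjusted p under 0.05, against 8.8% of genes, and DESeq2 called 0, against 1.09% of genes. Without M1376 or without M1524, which enter through the shared spread, more members were called under the cortex label. The share of all genes called in those fits is not given here. All values at 2 months rest on reading genotype by the mouse number. Read by the sample record, 0 members were called at 2 months in cortex-labelled libraries, where 1 of all tested genes was called. The 3 differences then turned sign, to 1.54 for Sema4b, 0.91 for Plxna4 and -0.96 for Sema4a (adjusted p = 1.0 each).

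Sema4b was already low in the mutant cortex-labelled libraries at 2 months. Its CPM was 25.3, 13.6 and 22.0 in the controls M2618, M2629 and M2633 and 2.08, 1.64 and 3.55 in the mutants M2617, M2621 and M2624. The groups did not overlap, and the log2 difference was -3.06 ± 0.42 (adjusted p = 0.00067). In brainstem-labelled libraries its values overlapped, at 24.8, 18.6 and 21.6 CPM in controls and 18.1, 20.4 and 16.7 in mutants (-0.24 ± 0.38, adjusted p = 0.897). The Sema4b call at 2 months held in all 10 fits without 1 mouse.

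Plxna4 was at 85.8, 42.7 and 55.7 CPM in the cortex-labelled controls M2618, M2629 and M2633 and at 29.9, 18.6 and 29.7 in the mutants M2617, M2621 and M2624, without overlap (-1.24 ± 0.25, adjusted p = 0.00761). The call was lost without M2618 (adjusted p = 0.0509) and without M2621 (adjusted p = 0.0506). Sema4a was at 7.10, 8.46 and 7.59 CPM in controls and at 46.5, 13.8 and 20.6 in mutants, without overlap, with M2617 well above the other mutants. The log2 difference was 1.80 ± 0.48 (adjusted p = 0.0356). The Sema4a call was lost without M2617 (0.155), M2618 (0.118), M2629 (0.110) or M2633 (0.133), each an adjusted p. Sema4d was at 396, 276 and 263 CPM in controls and 562, 496 and 565 in mutants, without overlap, and Sema4c at 73.8, 67.1 and 32.7 against 115, 114 and 110. Neither passed (0.80 ± 0.23, adjusted p = 0.0512 for Sema4d, and 0.96 ± 0.30, adjusted p = 0.073 for Sema4c).

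**Figure D3:**
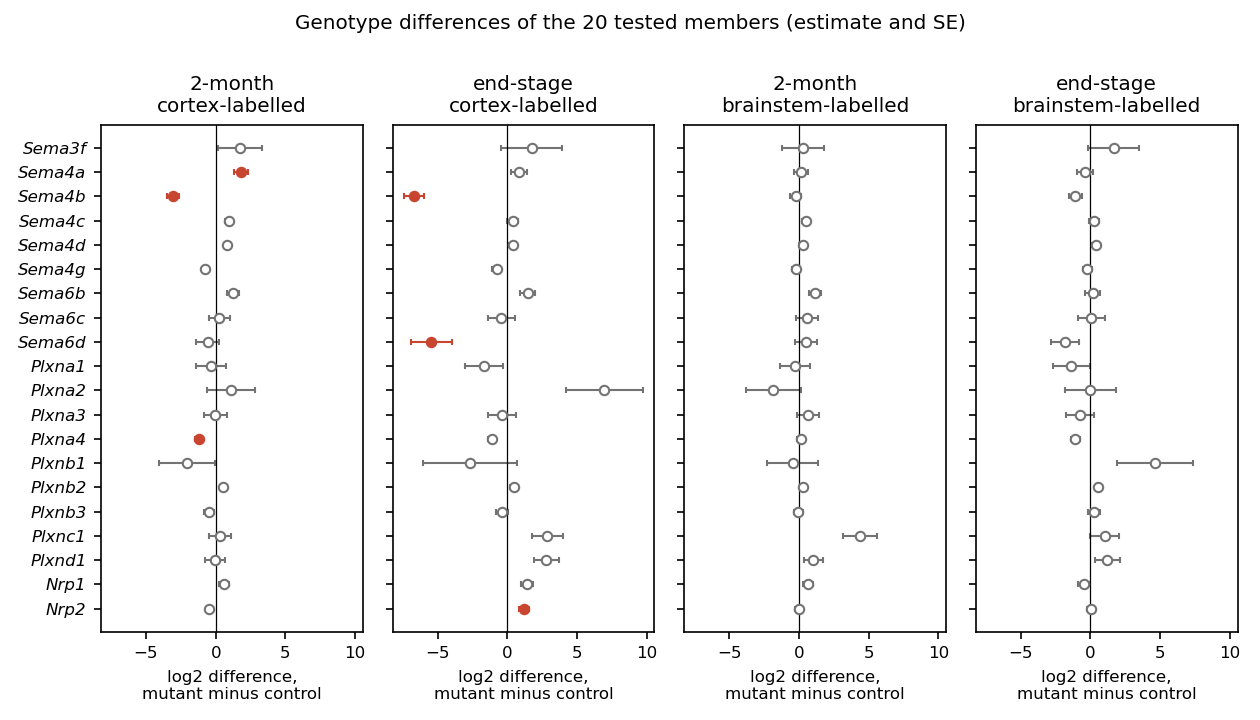
Log2 difference, mutant minus control, of the 20 tested members in the 4 genotype comparisons. Points are estimates with their SE, and filled red points had an adjusted p under 0.05. Sema4b stands furthest left in both cortex-labelled panels, at -3.06 and -6.69, and no point is filled in the brainstem-labelled panels.

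In brainstem-labelled libraries the 3 members with the lowest p at end-stage were Plxna4 (-1.07 ± 0.31, adjusted p = 0.170), Sema4b and the receptor Plxnb2 (0.56 ± 0.26, adjusted p = 0.476). Plxna4 was at 103 and 97.0 CPM in the controls M1375 and M1521 and at 50.96 and 44.1 in the mutants M1376 and M1524, so the groups did not overlap, and its estimate there was close to that in cortex-labelled libraries. At 2 months the 3 lowest were Plxnc1 (4.40 ± 1.21, adjusted p = 0.212), Sema6b (1.18 ± 0.43, adjusted p = 0.420) and Nrp1 (0.64 ± 0.34, adjusted p = 0.627). Plxnc1 stood at 0, 0 and 0.0584 CPM in the 2-month brainstem-labelled controls and at 0.146, 1.13 and 0.319 in the mutants, most of which lies near or under the level that 3 counts give.

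The genotype difference of Sema4b was tested between region labels. At end-stage it was the 1 member called, and it was lower, where 0.0844% of all genes were called and 0.0603% were called lower, with 0.0241% called higher. The difference of differences was -5.59 ± 0.83 (adjusted p = 0.00994). It held in 12 of 17 alternatives. The call was lost without M1375, without M1521 and without the 4 mice of conflicting labels. It was also lost when read by the sample record (adjusted p = 0.59) and with only the groups compared in the fit (adjusted p = 0.196). At 2 months 0 members were called, against 0.0241% of genes. Of these members 4 had an unadjusted p under 0.05 by edgeR, against 8.32% of genes, and DESeq2 called 2, Sema4b and Plxna4, against 0.548% of genes. Sema4b stood there at -2.82 ± 0.55 (adjusted p = 0.124). With the mouse as a replicate block it was called, at -2.84 ± 0.44 (adjusted p = 0.0122), where 0.723% of genes were. Nrp1 at end-stage differed between labels by 1.91 ± 0.59 without passing (adjusted p = 0.520).

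The genotype difference was also tested between stages. In cortex-labelled libraries 0 members were called, against 0.265% of genes. An unadjusted p under 0.05 was reached by 4 members in edgeR, against 9.91% of genes, and DESeq2 called 2, Sema4b and Nrp2, against 1.35% of genes. Sema4b stood at -3.63 ± 0.80 (adjusted p = 0.0673) and Nrp2 at 1.65 ± 0.42 (adjusted p = 0.131). With genotype read by the sample record Sema4b was called in edgeR, at -8.24 (adjusted p = 0.0162), where 75 of all tested genes were called. In brainstem-labelled libraries 0 members were called, against 0.00603% of genes, while 3 members had an unadjusted p under 0.05 in edgeR, against 4.42% of genes. DESeq2 called 0, against 0.0723% of genes.

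**Figure D4:**
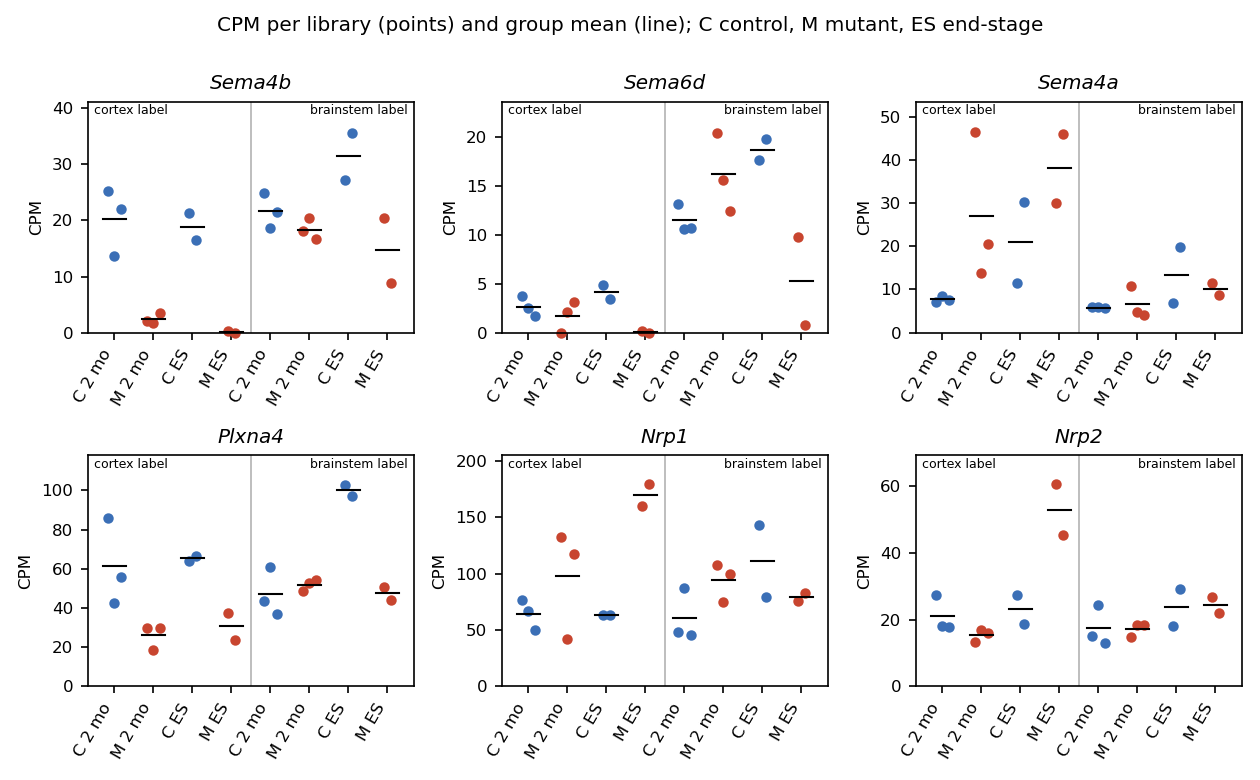
CPM of 6 members in every library, with the group mean as a line. Cortex-labelled groups are left of the grey line and brainstem-labelled ones right of it, C control and M mutant. Sema4b falls to 1.64 to 3.55 in 2-month and to 0 to 0.327 in end-stage mutant cortex-labelled libraries, and Nrp2 is at 45.4 and 60.6 only in the end-stage mutant ones.

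Averaging the genotype difference over both stages, a comparison added after the data were seen, gave 5 against 5 mice per region label. In cortex-labelled libraries 8 members were then called, against 11% of genes, and in brainstem-labelled libraries 0, against 1.99%. The lower ones were the ligands Sema4b (-4.88, adjusted p = 2.15e-06), Sema6d (-3.01, adjusted p = 0.0271) and Sema4g (-0.76, adjusted p = 0.0212) and the receptor Plxna4 (-1.16, adjusted p = 0.00113). The higher ones were the ligands Sema6b (1.35, adjusted p = 0.0154), Sema4a (1.33, adjusted p = 0.0295) and Sema4d (0.60, adjusted p = 0.0415) and the co-receptor Nrp1 (1.01, adjusted p = 0.0216). Sema4g was at 14.9, 18.1 and 16.8 CPM in 2-month controls and 20.2 and 20.4 in end-stage controls, above the younger mutants at 12.0, 7.02 and 10.3 and the end-stage mutants at 12.0 and 12.1. Sema6b was at 2.40 to 5.33 CPM in the 5 controls and at 5.31 to 20.1 in the 5 mutants, which overlap at 1 library. The difference between region labels of this average was called for Sema4b (-4.21 ± 0.50, adjusted p = 0.00067), where 0.271% of genes were called. With the mouse as a replicate block it was called for Sema4b (-4.28, adjusted p = 0.000362) and Sema4a (1.39 ± 0.27, adjusted p = 0.0228), where 1.08% of genes were. Read by the sample record it was called for 0 members and 0.0% of genes, with Sema4b at an adjusted p of 1.0. Read by the sample record none of these genotype averages was called for a member in either region label, against 0.114% of genes under the cortex label and 0.0% under the brainstem label.

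The other 10 tested members were called in none of the 13 comparisons: Nrp1, Plxna1, Plxna2, Plxna3, Plxnb1, Plxnb2, Plxnb3, Sema3f, Sema4c and Sema6c. Plxnb2, a microglial receptor of class 4 ligands, ran from 235.6 to 628.6 CPM over the 20 libraries. Its lowest cortex-labelled value was in 2-month control M2629 and its highest in end-stage mutant M1524, and between region labels its log2 difference was 0.01 ± 0.12. Plxna1, known as the partner of the Trem2 receptor complex in myeloid cells, was lower under the cortex label in 9 of 10 mice, with medians of 2.16 and 4.91 CPM (-1.18 ± 0.61, adjusted p = 0.219). Plxnb3 was higher under the cortex label in 8 of 10 mice, among them 5 of 5 controls, with medians of 14.1 and 13.7 CPM. Plxna2 stood at 0.708 and 1.1 CPM in the end-stage mutant cortex-labelled libraries and at 0.256 CPM or less in the other 18. The 2 end-stage control cortex-labelled libraries had 0 counts of it (adjusted p = 0.199). Plxna2 reached 10 counts only in the 2 end-stage mutant cortex-labelled libraries. It thus came to be tested through the group where it is high, and its higher level there is not a separate result. Plxna3, the neuropilin partner, ran from 0.218 to 8.19 CPM, and Sema3f, the 1 class 3 ligand tested and a ligand of Nrp2, ran from 0 to 4.99 CPM, with counts in 15 of 20 libraries.

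Summed markers of several cell types, given without a test, also moved with genotype in the cortex-labelled libraries. Those of astrocytes and pericytes overlapped between genotypes at both stages. Oligodendrocyte markers overlapped at end-stage and summed to 166.7 to 252.2 CPM in 2-month controls and 254.2 to 275.3 in mutants. Neuron markers overlapped at 2 months and summed to 12.7 to 32.7 CPM in end-stage controls and 7.62 to 12.35 in mutants. Neutrophil markers summed to at most 0.78 CPM. The 7 endothelial markers summed to 15.1 to 38.0 CPM in end-stage controls and 36.3 to 57.5 in mutants, and to 22.3 to 32.3 and 52.6 to 74.3 at 2 months, but Tek was at 0 and Cldn5 at 0 to 0.410 CPM in all of them. Under the brainstem label endothelial markers also summed higher in mutants, at 72.4 to 73.0 against 46.4 to 58.2 CPM at end-stage and at 110 to 121 against 44.9 to 65.5 at 2 months. The 8 border macrophage markers summed to 22.8 to 28.1 CPM in end-stage controls and 58.5 to 277.4 in mutants, and to 2.79 to 32.4 and 68.7 to 116 at 2 months. At 2 months Siglec1 made up most of that sum, at 64.7 to 109 CPM in mutants, with Lyve1 at 0. The 7 monocyte markers summed to 4.02 to 15.8 CPM in end-stage controls and 35.3 to 38.5 in mutants, with Ly6c2 at 0. At 2 months they summed to 9.12 to 14.2 in controls and 67.1 to 110 in mutants. The 6 markers of oligodendrocyte precursors summed to 5.82 to 6.50 CPM in end-stage controls and 37.3 to 88.7 in mutants, of which Cspg4 alone was 37.0 to 87.8, with Olig2 at 0 in the mutants. The 8 microglia markers summed to 46630 to 51770 CPM in end-stage controls and 32180 to 37270 in mutants, and to 49790 to 50610 and 43740 to 45930 at 2 months. The 6 T and NK cell markers summed to 3.69 to 4.87 CPM in end-stage controls and 0.065 to 0.327 in mutants, and to 5.61 to 12.9 and 2.38 to 17.1 at 2 months. In end-stage controls Klrd1 was their whole sum, with Cd3e and Cd3g at 0. Of the B cell markers, Ighm was at 718.6 to 775 CPM in end-stage controls and 259.1 to 266.4 in mutants, and Cd79b at 47.1 to 66.5 and 11.8 to 15.1, with Ms4a1 at 0 in the controls and 0 to 0.13 in the mutants. The part of these cell types in the differences of Sema4b, Sema6d, Sema4a, Plxna4, Nrp1 and Nrp2 was not tested.

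Genes that act with or below these receptors were followed in a list of 46, of which 41 were tested. The list holds collapsin response mediators, small GTPases and their partners, LIM and PAK kinases, and receptors that pair with plexins or bind semaphorins. At end-stage in cortex-labelled libraries 3 were higher and 3 lower, against 1.83% and 2.18% of all genes, with a median log2 difference of -0.10. The 4 with the lowest p were Kdr, a VEGF receptor that pairs with neuropilins (2.87, adjusted p = 0.00825), Mical2, an actin-oxidizing enzyme of the plexin pathway (3.53, adjusted p = 0.014), the GTPase Rhoa (-0.62, adjusted p = 0.0212) and the kinase Pak1 (-0.83, adjusted p = 0.0253). At 2 months 4 were higher and 1 lower in cortex-labelled libraries, against 3.64% and 1.81% of all genes, with a median of 0.24. These were led by Kdr (2.78, adjusted p = 0.0018), the B-type plexin partner Met (adjusted p = 0.0208), the kinase Limk1 (0.64, adjusted p = 0.0228) and the GTPase Rap1a (-0.58, adjusted p = 0.032). Met had 0 counts in the 3 controls and 2.25 to 13.3 CPM in the 3 mutants. Kdr ran from 1.20 to 3.003 CPM in 2-month controls and from 10.4 to 20.4 in mutants, and at end-stage from 1.69 to 1.71 in controls and from 7.79 to 17.2 in mutants. Between stages in mutant cortex-labelled libraries Pak1 (-1.05, adjusted p = 0.0064) and Rhoa (-0.57, adjusted p = 0.0361) were lower and 0 were higher, against 1.1% and 0.735% of all genes. Between region labels 1 was higher and 3 lower, against 7.53% and 6.51% of all genes, among them the Sema4d receptor Cd72 (2.77, adjusted p = 0.00629) and the GTPase Rac1 (-0.38, adjusted p = 0.00221). Cd72 ran from 3.30 to 11.7 CPM in 2-month cortex-labelled controls and from 41.6 to 155 in the mutants, without overlap, but was not called between genotypes (adjusted p = 0.0877). In the other 9 comparisons 0 of the 41 were called. Kdr is also on the endothelial marker list.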

How the data were processed

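RNA-seq counts per gene were taken as the authors deposited them, in 1 table of raw counts with no normalization. FastQC, Subread, edgeR and the mouse build mm10 are named per the submitters' processing notes, while annotation, strand setting and the handling of multi-mapping reads are not given in the sources used here. Of 55487 identifiers, 93 had no symbol in the GENCODE M21 annotation of GRCm38. Genes kept by filterByExpr (16595) were fitted with edgeR 4.0.16 in R 4.3.3, with TMM factors and 1 quasi-likelihood model over 8 groups and 20 libraries. Benjamini-Hochberg adjusted p-values over all 16595 genes were called under 0.05, and standard errors came from the log2 difference and its F statistic. Unless another tool is named, adjusted p-values are from this edgeR fit. The steps were tested on simulated data.

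The 13 comparisons were region label averaged over groups, genotype and stage in each region, and genotype by region and by stage. Statistics are given for members called in a comparison and, where none was called between genotypes, for the 3 with the lowest p, and for up to 4 called genes of the signalling list per comparison by p. Other members and genes named with values were chosen after their values were seen. The members and lists were chosen with earlier results of these data known. The libraries of 1 mouse pair by animal, and their deviations from group means correlated at 0.101 to 0.265 over 16595 genes for the 10 mice. Alternatives were DESeq2 1.42.0, RLE size factors, no filter, genotype by the sample record, leaving out each mouse or the 4 of conflicting labels, fitting only the groups compared, and the mouse as a block.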

Additional observations from a re-analysis of the deposited data

Results flagged for a closer look

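The genotype difference of Sema4b at end-stage was not the same under the 2 region labels. In cortex-labelled libraries its log2 difference was -6.69 and in brainstem-labelled ones -1.10, and the difference between them was -5.59 (SE 0.83, adjusted p = 0.00994 by edgeR). It was the 1 member whose genotype difference was called as differing, and the 13 comparisons held 4 such tests of a difference between region labels or stages. The call held in 12 of 17 alternatives and was lost, among others, by the sample record and with only the groups compared. By the sample record the end-stage genotypes are the same, and the 2-month mice enter through the shared spread.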

How the results depend on the processing

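Counts of members called moved as follows. Read by the sample record, 4 were called between region labels, 1 and 0 between genotypes under the cortex label at end-stage and 2 months, 0 for genotype by region at end-stage and 1 for genotype by stage under the cortex label. Among all tested genes this reading called 1586, 171, 1, 0 and 75 in these comparisons, in the same order. It leaves the end-stage genotypes unchanged, so comparisons within end-stage moved through the shared spread. The 2-month cortex-label differences reversed, to 0.91 for Plxna4, -0.96 for Sema4a and 1.54 for Sema4b. Without the 4 mice of conflicting labels the counts were 3 between region labels and 0 for genotype at 2 months, stage in mutants (both cortex label) and genotype by region at end-stage. DESeq2 called 6 and 5 between genotypes under the cortex label at end-stage and 2 months, 1 at end-stage under the brainstem label, 4 for stage in mutants, and 2 each for genotype by region at 2 months and genotype by stage under the cortex label. Its shares of all genes there were 6.78%, 8.99%, 1.9%, 4.42%, 0.548% and 1.35%, in the same order. With no filter on low counts it was 6 and 6 between genotypes under the cortex label and 2 and 1 under the brainstem label (end-stage, then 2 months), 1 and 3 for stage in controls (cortex, brainstem), 5 for stage in mutants, 3 and 3 for genotype by region, and 4 for genotype by stage. With only the groups compared, 1 was called for stage in mutants, 0 for genotype by region at end-stage and 1 at 2 months. That fit also lost the end-stage cortex-label genotype calls of Nrp2 (adjusted p = 0.0633) and Sema6d (adjusted p = 0.051). Both were lost as well without the 4 mice of conflicting labels. With the replicate block 1 was called for genotype by region at 2 months, and the counts for region label and for genotype by region at end-stage, the other comparisons within mice, stayed at 9 and 1. The block called 0.723%, 17.6% and 0.38% of all genes there, in the same order. RLE size factors moved no count by over 1.5 times. For the fits with no filter, with only the groups compared or with mice left out, the share of all genes called is not given here. Their counts therefore cannot be read as results about these members. Leaving out 1 mouse gave 4 to 8 members between region labels, 1 to 4 and 2 to 5 between genotypes under the cortex label at end-stage and 2 months, 1 to 3 for stage in mutants, and 0 to 1 for genotype by region at each stage and for genotype by stage under the cortex label. At 3 counts, 0.142 to 0.319 CPM, depth sets the lower limit for Sema6d, Plxnc1 and the untested members.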
